A study of Mus musculus with 3 samples.

Results

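Hypoxia-response T cells were the 5% of pooled intratumoral pmel T cells with the most transcripts of 6 genes that low oxygen is known to induce, 1423 of 28452 cells. They were chosen by a score, the summed UMIs of *Bnip3*, *Ankrd37*, *Egln3*, *Pdk1*, *Ero1a* and *Higd1a* over all UMIs of the cell. A UMI stands for 1 RNA molecule caught from the cell. Cells with 2000 to 120000 UMIs and at most 20% of UMIs from mitochondrial genes were eligible, and 31026 had been deposited. The levels of the 6 genes therefore describe the choice and are given without a test.

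The pmel cells are CD8+ T cells from TCR transgenic mice, with a receptor for the melanoma antigen gp100, and carried the marker Thy1.1. They were preconditioned with gp100 peptide and 10 nM of super IL-2 (sIL-2), of sIL-2 + IL-21, or of IL-2/21-Trikine, an engineered protein that links sIL-2 to a binder of the IL-21 receptor. All recipients were irradiated C57BL/6 mice with subcutaneous B16F10 melanoma and received the cells 5 days after tumor injection, then 4 doses of 2.5 μg every 48 h. Mice given cells preconditioned with sIL-2 or with sIL-2 + IL-21 were dosed with sIL-2, so those libraries differ in the culture and not in the agent dosed, and mice given Trikine cells were dosed with Trikine. Tumors were taken on day 18, and live Thy1.1+CD8+ cells were sorted and sequenced in 3 libraries, 1 per treatment, with no untreated library here. With 1 library per treatment no test between treatments was possible, and the number of mice pooled in each was not found in the sources used here. Runs of 3 values follow the order sIL-2, Trikine (for IL-2/21-Trikine), combination (for sIL-2 + IL-21). Pairs of libraries shared 31, 18 and 43 barcodes, and no barcode belonged to a member in both libraries of a pair.

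Cells sense oxygen through prolyl hydroxylases, encoded by the *Egln* genes, which mark the HIF alpha subunits for destruction by a ligase that contains VHL. When oxygen is scarce the mark is not made, HIF accumulates, pairs with ARNT and binds hypoxia response elements, whose core reads ACGTG or GCGTG. The genes it switches on move metabolism from respiration to glycolysis and include *Egln3* and *Egln1* themselves, a feedback on the sensor. Tumors are known for poorly perfused, oxygen-poor regions, and T cells can use the same genes after receptor or cytokine signals at normal oxygen.

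The promoters of 3 score genes show this core directly. *Bnip3* encodes a mitochondrial protein of mitophagy, *Ankrd37* an ankyrin repeat protein, and *Ero1a* an oxidase that forms disulfide bonds in the endoplasmic reticulum. The lines below give the 250 bases before the start of each, from RefSeq on build GRCm38.p6, 5′ to 3′ on the strand of the gene, with capitals for ACGTG or GCGTG on either strand, where neighboring matches may overlap. The windows, all on the minus strand, are chr7:138909507-138909756 for *Bnip3*, chr8:45999851-46000100 for *Ankrd37* and chr14:45318573-45318822 for *Ero1a*.
Bnip3: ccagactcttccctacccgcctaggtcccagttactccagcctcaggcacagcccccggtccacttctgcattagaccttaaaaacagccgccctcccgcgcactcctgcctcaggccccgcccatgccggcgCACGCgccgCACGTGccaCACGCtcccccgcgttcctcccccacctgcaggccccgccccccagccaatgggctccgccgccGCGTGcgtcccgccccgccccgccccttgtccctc
Ankrd37: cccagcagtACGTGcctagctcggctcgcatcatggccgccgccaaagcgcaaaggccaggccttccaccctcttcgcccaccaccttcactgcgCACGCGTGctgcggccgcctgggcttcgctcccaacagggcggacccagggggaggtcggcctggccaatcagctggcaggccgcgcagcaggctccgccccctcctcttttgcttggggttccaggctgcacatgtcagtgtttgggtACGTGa
Ero1a: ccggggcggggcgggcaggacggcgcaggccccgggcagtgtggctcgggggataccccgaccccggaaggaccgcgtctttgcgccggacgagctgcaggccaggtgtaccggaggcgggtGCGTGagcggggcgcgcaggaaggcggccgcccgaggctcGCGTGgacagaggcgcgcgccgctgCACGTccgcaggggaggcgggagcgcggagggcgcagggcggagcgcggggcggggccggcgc

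*Bnip3* held 5 matches, *Ankrd37* 4 and *Ero1a* 3, while *Higd1a* held 2 and *Egln3* and *Pdk1* 1 each. Of all 32851 promoter windows of the same length, 38.6% held at least 1 match, against 78.1% of the 32 windows of 20 glycolysis genes and 78.9% of the 38 windows of 28 other HIF target genes. These letters are a description of the window and not evidence of binding.

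The score formed a range without a gap. The lowest member stood at 1113.13 and the highest cell left out at 1112.97 UMIs per 1000000 UMIs (CPM), and 312 members, 21.9%, lay within 10% above the limit, with 423 other cells within 10% below it. Members are thus the upper end of this range by the way they were chosen. Whether they form a separate cell type was not tested, since a fixed share of a score cannot decide it. The median score was 1434 CPM in members and 333 CPM in other cells, from a median of 21 score UMIs in members and 4 in other cells. Some members were called on little: the fewest score UMIs in a member was 3.

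**Figure D1:**
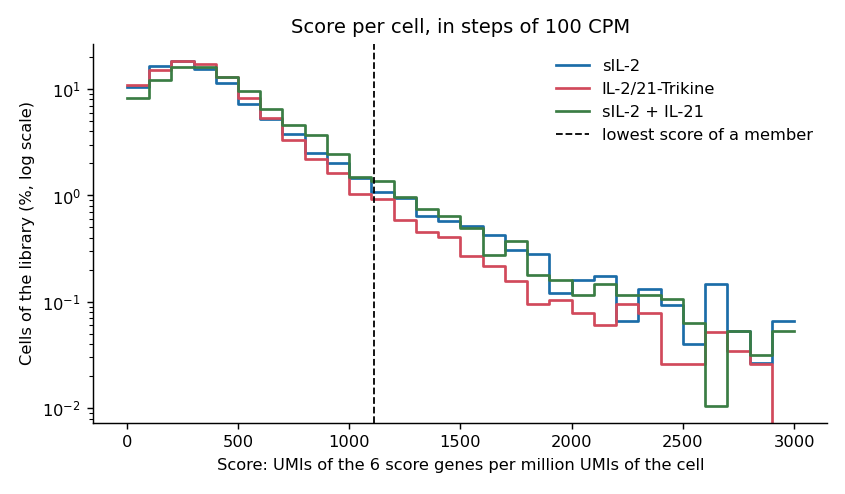
Share of the cells of each library (percent, log scale) by score in steps of 100 CPM, with a dashed line at the lowest score of a member, 1113 CPM. The curves fall without a second peak, and the 19, 10 and 27 cells over 3000 CPM are not drawn.

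The share of members was 5.83% with sIL-2 (437 of 7494 cells, exact binomial 95% interval 5.31 to 6.39%), 3.58% with Trikine (412 of 11524, 3.24 to 3.93%) and 6.08% with the combination (574 of 9434, 5.61 to 6.59%). The Trikine share was 0.613 times that with sIL-2 (counting interval 0.538 to 0.699) and 0.588 times that of the combination (0.519 to 0.665), and the ratio of sIL-2 to the combination was 0.958 (0.849 to 1.08). These intervals cover counting error only. The Trikine library was also the shallowest, with a median of 9450.5 UMIs in members and 11674 in other cells, against 12638 and 13397 with sIL-2 and 18223.5 and 14302.5 with the combination. With every cell thinned to 2000 UMIs before scoring, where ties raise the number of members to 2225, the shares were 8.27%, 6.39% and 9.21% and the first 2 ratios 0.772 and 0.693. Without cells that held 2 or more UMIs of the melanoma or myeloid lists, an exclusion that left 4184, 7041 and 4066 cells, the ratio of Trikine to combination was 1.11 and that of sIL-2 to combination 1.53. That exclusion was wide, since 44.6%, 34.5% and 73.9% of members and 42.9%, 38.3% and 55.1% of other cells held 2 or more UMIs of the myeloid list, in which *Cst3* was the most abundant gene. Leaving out cells with 3 or more UMIs of mitosis genes instead gave 0.838 and 1.23 for the last 2 ratios. With a limit on T cell markers, added after seeing the data, the 3 ratios were 0.617, 0.581 and 0.942, and the order of the shares was as in all cells with that limit, with 5000 UMIs as the lowest total, with at most 10% mitochondrial UMIs and without the deepest 5% of cells. The ratio of sIL-2 to combination passed 1 with the 2% highest cells as members (1.12), with a score without *Higd1a* (1.22), with a scaled mean of the 6 genes (1.10) and with members taken within 10 classes of depth (1.03).

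The score genes did not contribute alike. *Higd1a*, which encodes a small mitochondrial protein, gave 34.9% of the members' score UMIs, *Ero1a* 28.0% and *Bnip3* 21.9%, while *Ankrd37* gave 7.13%, the HIF hydroxylase *Egln3* 5.03% and *Pdk1*, a kinase that restrains pyruvate entry into the mitochondrion, 2.99%. In 82.7% of members at least 4 of the 6 genes had a UMI, against 21.8% of other cells. Even so, 508 members, 35.7%, drew at least 50% of their score from a single gene, which was *Higd1a* in 327.

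Each score gene was then measured in cells chosen by the other 5 genes, so that it did not choose the cells it was read in. The 6 genes were picked together, so this remains a description. *Bnip3* stood at 352 CPM in the chosen cells and 53.4 CPM in the others with sIL-2, at 235 and 30.9 CPM with Trikine, and at 293 and 63.7 CPM with the combination. The folds were 6.59, 7.60 and 4.60, with a geometric mean of 6.13. *Egln3* (4.28), *Ero1a* (4.11) and *Ankrd37* (4.08) had lower geometric mean folds, and *Pdk1* (2.14) and *Higd1a* (2.06) the lowest. Every gene was higher in the chosen cells of all 3 libraries.

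**Figure D2:**
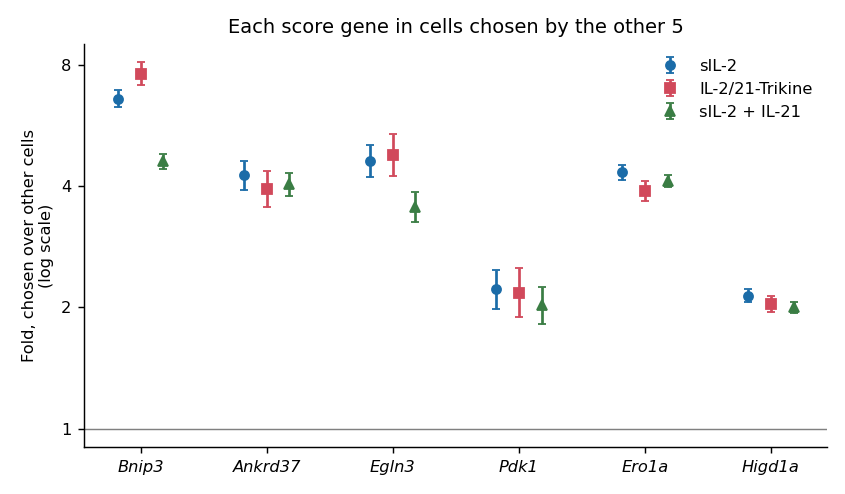
Fold of each score gene (log scale) in cells chosen by the other 5 genes over the remaining cells, with 95% counting intervals, in 3 libraries. *Bnip3* has the highest folds, 4.60 to 7.60, and *Higd1a* and *Pdk1* lie near 2 in every library.

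The members were T cells by their markers. The 12 T cell identity genes summed to 15922, 14063 and 11770 CPM in members and to 18206, 16936 and 15253 CPM in other cells. Of these genes *Cd3e*, *Cd8a*, *Trbc1* and *Trbc2* were called lower and 8 were not called. *Cd3d* stood at 777, 719 and 656 CPM in members with a log2 ratio of 0.04. The 9 listed melanoma genes summed to 98.3, 35.7 and 11.6 CPM in members and 8.92, 14.7 and 7.41 CPM in others. *Gpnmb* was the most abundant, *Sox10* was at 0 in members of the Trikine and combination libraries and *Tyr* in those of Trikine, and 7 of 8 genes tested were called higher. The 3 members richest in the 6 defining melanoma genes held 94.3%, 71.8% and 71.4% of the 455, 71 and 35 UMIs of those 6 genes, while all 9 genes had 675, 171 and 128 UMIs, with at least 1 in 18.5%, 13.8% and 14.3% of members and 10.1%, 8.86% and 10.2% of other cells. UMIs from free RNA in the droplets cannot be told apart from those of the cell in such shares. A T cell limit, added after seeing the data, kept cells with at least 20 UMIs of CD3, CD8 and T cell receptor genes per 10000 and fewer than 3 of the defining melanoma and of the defining myeloid genes. It left out 22 members (1.55%) and 148 other cells (0.548%), and then 1 melanoma gene was called higher. The 14 myeloid genes summed to 190, 290 and 311 CPM in members and 141, 144 and 201 CPM in others, with *Cst3* the most abundant, and *Adgre1*, the macrophage marker F4/80, was at 0 in members of every library. Of 13 myeloid genes tested 4 were called higher and 1 lower. The part of these cells in the results below was not tested beyond values given without them.

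Members were compared with other cells over sums of UMIs, with library as a block and the score genes left out, by the quasi-likelihood test of edgeR with Benjamini-Hochberg adjustment. Of 15020 genes tested, 1392 were called higher in members (9.27%) and 1945 lower (12.9%), at a median log2 ratio of -0.03. These shares over all genes are the background for the counts of called genes in each list. Members and other cells of a library shared their mice, sort and run, and the 3 libraries differed in treatment. With the block, p-values set the difference between members and other cells against its spread over these libraries. Differences in level between libraries are taken out. Without the block for library 67 genes were called higher and 8 lower, and 1379 of the 1392 and 1940 of the 1945 kept their sign.

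Of 21 genes for glucose uptake and glycolysis, 18 were called higher and none lower, with a median log2 ratio of 1.02. Summed, the list reached 9640, 8366 and 9217 CPM in members and 4600, 4051 and 5062 CPM in other cells. At an equal depth of 2000 UMIs the median cell held 18, 16 and 18 UMIs of the list among members and 7, 7 and 8 among others. Members here were those chosen at full depth, so the part of depth in their choice was not tested. The glucose transporter *Slc2a3* stood at 446, 328 and 383 CPM in members and 141, 97.1 and 133 CPM in others (log2 ratio 1.69, SE 0.06, adjusted p 1.05e-09). *Slc2a1*, the other main glucose transporter of T cells, had a log2 ratio of 1.38.

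Along the pathway, the log2 ratio was 0.74 for *Hk1* and 0.73 for *Hk2*, the hexokinases that trap glucose, 1.71 for the aldolase *Aldoc* and 1.39 for the triosephosphate isomerase *Tpi1*. All 4 were called higher. *Tpi1* stood at 673, 669 and 687 CPM in members and 247, 243 and 311 CPM in others. *Ldha*, which makes lactate, had a log2 ratio of 0.73, and *Slc16a3*, which exports it, 1.34. *Pfkm*, *Eno2* and *Pfkfb4* were not called, all at under 5 CPM in members of every library.

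Other HIF targets followed, with 27 of 36 called higher, none lower and a median log2 ratio of 1.06. *Ak4*, a mitochondrial adenylate kinase, had the highest ratio, 19.2, 14.6 and 9.32 CPM in members against 2.55, 2.03 and 1.83 CPM in others (log2 ratio 2.74, SE 0.15, adjusted p 4.98e-08). *Vegfa*, the angiogenic growth factor, was at 19.5, 16.3 and 13.0 CPM in members and 3.68, 3.76 and 3.32 CPM in others (2.20). Both genes were low in absolute terms. *P4ha2* (2.08) and *P4ha1* (1.19) hydroxylate collagen, *Ndrg1* (1.69) is a stress gene, *Bnip3l* (1.11) acts in mitophagy like *Bnip3*, and *Pgm1* (1.33), *Gys1* (1.47) and *Gbe1* (1.09) make glycogen. *Hilpda*, which holds back lipid breakdown, was abundant at 892, 444 and 432 CPM in members and 447, 222 and 322 CPM in others (0.85). *Car9*, *Bhlhe40*, *Rora*, *Tfrc*, *Nrn1*, *Pgm2*, *Plod1*, *Ankzf1* and *Rcor2* were not called.

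**Figure D3:**
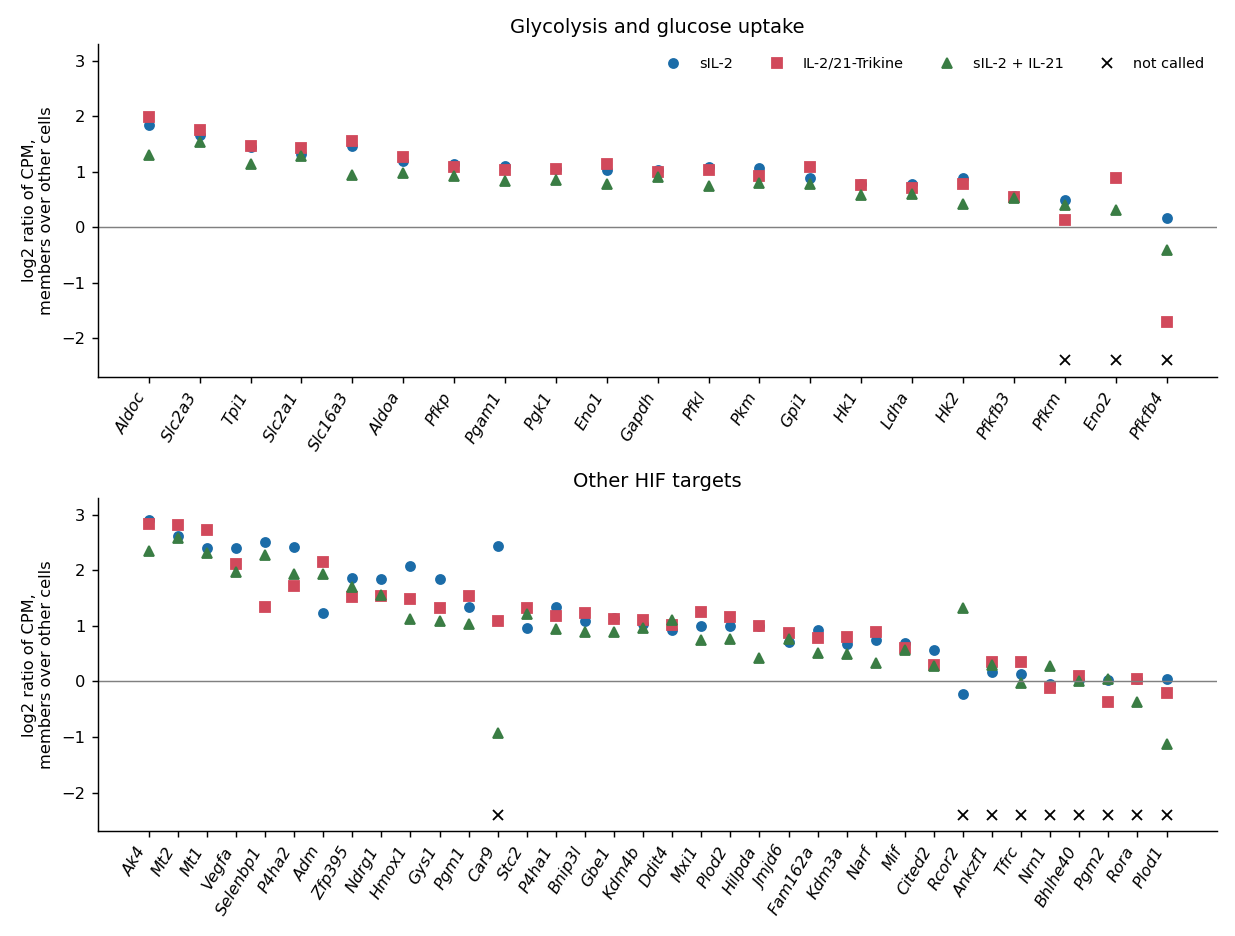
Log2 ratio of summed CPM, members over other cells, for 21 glycolysis genes and 36 other HIF targets in 3 libraries, ordered by the fitted ratio, with crosses under genes not called. *Aldoc* and *Slc2a3* lead the first list and *Ak4* and *Mt2* the second, and points with a sum of 0 are left out.

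The pathway's own components moved in part. *Egln1*, the main oxygen sensor, stood at 280, 241 and 227 CPM in members and 102, 84.2 and 98.7 CPM in others (log2 ratio 1.43, SE 0.07, adjusted p 8.44e-09). *Vhl* (0.74), *Epas1* (0.37) and *Hif1a* (0.32) were also called higher, and 11 of 15 genes were not called, *Arnt* (0.19) and *Egln2* (0.13) among them. For *Hif1a* the ratio was smallest in the combination library, where members stood at 311 CPM and others at 292 CPM.

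Of 13 genes of the mitochondrial genome 11 were called lower (median log2 ratio -0.36), and the list summed to 11153, 10317 and 11671 CPM in members and 13568, 13917 and 14271 CPM in others. Of 28 nuclear genes of oxidative phosphorylation 2 were called higher and 5 lower (median -0.01), near the shares over all genes tested, and 21 were not called. Of 16 TCA cycle genes 5 were called lower and none higher. Chaperones and foldases of the unfolded protein response were called lower in 9 of 14 cases and higher in none (median -0.32). With counts thinned to 2000 UMIs 5 of them were called lower. The ATF4 program of amino acid stress, in contrast, had 9 of 17 genes called higher and 2 lower (median 0.55), among them *Ddit3*, a stress transcription factor, at 55.5, 61.8 and 53.6 CPM in members and 25.2, 30.9 and 20.7 CPM in others. *Slc7a11*, also called, had 100% of its member UMIs in 5 cells. By library the median log2 ratios of the ATF4 list were 0.42, 0.24 and 0.46. With the T cell limit 8 genes of this list were called higher and 2 lower, at a median of 0.36.

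Among genes called with 1 sign in all 3 libraries and with a mean of 20 CPM or more over the 3 member sums, the 10 largest increases were *Cxcl2* (log2 ratio 3.39), *Mgarp* (3.35), *Mt2* (2.71), *Mt1* (2.52), *Basp1* (2.22), *Kit* (2.12), *Hspb1* (2.06), *Arrb1* (1.82), *Gm44040* (1.76) and *Zfp395* (1.75). *Cxcl2*, a neutrophil chemokine, had 95.6% of its member UMIs in 5 cells, and with the T cell limit its log2 ratio was -2.84 and it was not called. *Hspb1*, a small heat shock protein, had 64.6% of its member UMIs in 5 cells. For *Mt2*, 5 cells held 25.1%, 35.2% and 8.10% of the member UMIs of a library, and for *Mt1* 24.4%, 30.0% and 6.81%. For the remaining 6 genes the shares lay between 7.16% and 22.7%. *Mgarp*, which encodes a mitochondrial protein known to respond to HIF, stood at 34.4, 31.5 and 31.7 CPM in members and 2.89, 2.83 and 4.05 CPM in others (SE 0.12, adjusted p 9.82e-10). Its level was nearly the same in the members of all 3 libraries. *Kit*, a receptor tyrosine kinase, was at 38.5, 31.5 and 14.9 CPM in members and 9.23, 5.65 and 4.51 CPM in others.

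The metallothioneins *Mt1* and *Mt2*, which bind zinc and copper and can be induced by hypoxia, metals and glucocorticoids, combined a large ratio with a high level. *Mt1* stood at 882, 1102 and 3978 CPM in members and at 166, 166 and 803 CPM in others. The log2 ratios were 2.41, 2.73 and 2.31, and their difference between libraries was not tested. The zinc exporter *Slc30a1* and the metal sensor *Mtf1* were not called, and *Mt3* was not either.

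With the mean taken over other cells, the 10 largest decreases were *Il3* (-2.35), *Cxcl10* (-2.34), *Aff3* (-1.56), *Crtam* (-1.49), *Xcl1* (-1.33), *Tox* (-1.25), *Ccl1* (-1.23), *Csf2* (-1.19), *A330040F15Rik* (-1.15) and *Nr4a1* (-1.11). *Il3* had 87.0% of its member UMIs in 5 cells. For *Cxcl10* 5 cells held 58.9%, 49.1% and 40.4% of the member UMIs of a library, for *Xcl1* 46.0%, 31.0% and 24.6%, and for the remaining 7 genes between 10.4% and 37.8%. *Xcl1*, a chemokine for cross-presenting dendritic cells, stood at 2153, 2199 and 719 CPM in members and 4401, 4375 and 3070 CPM in others. *Cxcl10*, an interferon-induced chemokine, was at 13.8, 11.1 and 4.25 CPM in members and 64.1, 55.8 and 26.9 CPM in others.

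Of 18 T cell activation genes 12 were called lower, 2 higher and 4 not (median log2 ratio -0.57). The nuclear receptor *Nr4a1*, an early response to antigen, stood at 210, 100 and 43.3 CPM in members and 354, 180 and 163 CPM in others. *Nr4a3* (-0.85), *Nr4a2* (-0.73), *Egr2* (-1.01), *Myc* (-0.68) and *Irf4* (-0.45) were also called lower. *Tnfrsf4* (0.70) and *Tnfrsf9* (0.34), costimulatory receptors of the TNF family, were called higher. *Ccl3* (adjusted p 0.051) and *Ccl4* (adjusted p 0.19) were not called, and their log2 ratios were -0.44, -0.05 and -2.60, and -0.09, 0.20 and -1.61, over the 3 libraries. Of 14 genes of the dissociation response, which tissue digestion can induce, 9 were called lower and 3 higher, *Fos* and *Egr1* among the lower. The part of digestion in these values was not tested.

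Interferon genes had 8 of 14 called lower and none higher (median -0.52), and 5 were called lower with counts thinned to 2000 UMIs. The antiviral gene *Ifit1* stood at 22.4, 8.56 and 1.99 CPM in members and 32.2, 17.1 and 6.14 CPM in others. Receptors of the common gamma cytokines, through which IL-2 and IL-21 act, had 3 of 8 called lower and none higher. *Il21r* stood at 105, 72.4 and 60.3 CPM in members and 158, 128 and 113 CPM in others (log2 ratio -0.73), and *Il2ra* had a log2 ratio of -0.29. Feedback genes of STAT signaling had 5 of 10 called lower and none higher, *Socs3* (-0.67) and *Pim1* (-0.36) among them.

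Effector genes split. Of 15 cytotoxic genes 6 were called higher and 4 lower. *Prf1*, perforin, stood at 356, 149 and 387 CPM in members and 169, 86.5 and 264 CPM in others (0.84), and *Gzmf* (0.74), *Gzmb* (0.53), *Gzmc* (0.51), *Serpinb6b* (0.28) and *Gzma* (0.26) were also called higher. The cytokines *Ifng* (-0.89) and *Tnf* (-0.49), with *Gzme* (-0.62) and *Serpinb9* (-0.35), were called lower. *Gzmd*, *Gzmg*, *Gzmk*, *Nkg7* and *Fasl* were not called.

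Among inhibitory receptors and exhaustion genes 5 of 12 were called higher and 2 lower, against 9.27% and 12.9% of all genes tested. The transcription factors *Prdm1* (1.23) and *Id2* (0.75), the receptors *Havcr2* (0.68) and *Ctla4* (0.46), and the ectoenzyme *Entpd1* (0.51) were higher. *Havcr2*, TIM-3, stood at 249, 106 and 172 CPM in members and 142, 57.0 and 144 CPM in others. The exhaustion factor *Tox*, at 16.6, 16.5 and 4.98 CPM in members and 33.8, 46.3 and 13.5 CPM in others, was lower, and *Pdcd1* was not called (-0.18). Of 14 stem and memory genes 6 were called lower, *Slamf6* (-1.68) and *Tcf7* (-1.04) first, and *Lef1* (0.23) was called higher.

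Of 16 S phase genes 14 were called lower and none higher (median -0.47), and the same counts held for 16 genes of G2 and mitosis (median -0.45). Mitosis genes summed to 599, 977 and 1295 CPM in members and 980, 1345 and 1519 CPM in others. At an equal depth of 2000 UMIs a mitosis UMI was found in 26.3%, 33.5% and 55.2% of members and 32.5%, 41.8% and 52.9% of other cells, and without thinning in 62.5%, 63.6% and 88.2% against 70.7%, 73.0% and 82.6%, so the share of cells was not lower in combination members. The count of calls moved with the settings. Of the S phase genes 7 were called lower with counts thinned to 2000 UMIs, and 4 without cells with mitosis UMIs. With the 10% highest cells as members 7 of the 16 mitosis genes were called, without the deepest 5% of cells 7, with counts thinned to 2000 UMIs 3, and without the sIL-2 library 9. Heat shock genes had 6 of 11 called higher, while the list summed to 3867, 4563 and 5001 CPM in members and 4105, 4715 and 4466 CPM in others, higher in members of the combination library alone. Ribosomal protein genes had 4 of 20 called higher (12 with the T cell limit) and p53 targets 2 of 10, *Cdkn1a* (0.39) and *Mdm2* (0.54), with none lower in these lists. Over all genes tested 9.27% were called higher, so these 2 small counts say little about their lists. Of 4 nuclear retained RNAs tested *Neat1* (0.68) was called higher and *Kcnq1ot1* (-0.54) lower. Of other lymphoid and stromal genes *Pecam1* (-0.39) alone was called. The 3 hemoglobin genes tested were called lower, and none was with the T cell limit. All 4 listed summed to 1.60, 0.418 and 0.452 CPM in members and 72.6, 0.0936 and 0.479 CPM in others, where the Trikine sums were higher in members. The other cells of the sIL-2 library held 8929 UMIs of these genes, and 2 of those cells held 2 or more.

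Across the whole range of cells, split into 20 equal bins by score, the lists behaved differently. Cells with a score of 0 took up bin 1 and part of bin 2 in the order of the libraries, so bins are given from 3 on. Glycolysis genes stood at 3148, 3038 and 3373 CPM in bin 3, at 7499, 6488 and 7421 CPM in the bin below the highest and 9640, 8366 and 9216 CPM in the highest. S phase genes stood at 589, 771 and 707 CPM in bin 3 and were highest in bins 11, 13 and 15, at 964, 1318 and 1429 CPM. Median UMIs per cell moved along, from 9151, 8881 and 9098.5 in bin 3 to 16195, 13735.5 and 19225 in those bins, and their part in these levels was not tested. T cell activation genes stood at 12891 CPM in bin 3 and 3958 CPM in bin 20 with the combination. With sIL-2 they stood at 9837 CPM in bin 3, 15956 CPM in bin 8 and 9156 CPM in bin 20, and with Trikine at 10142, 12598 (bin 9) and 8279 CPM. Genes of the unfolded protein response stood at 3265, 3799 and 3644 CPM in bin 3 and at 4546, 4689 and 4388 CPM in bin 9. In members they summed to 3009, 2856 and 3705 CPM, so low-score cells too were below the middle of the range.

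**Figure D4:**
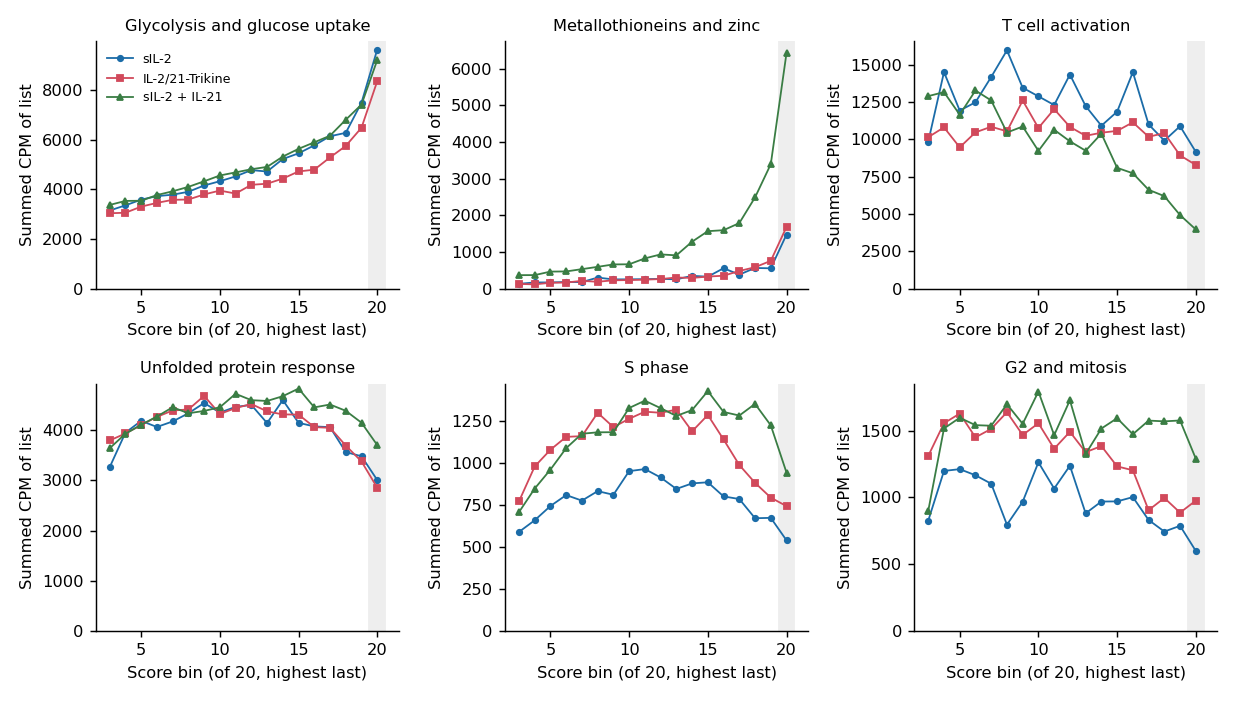
Summed CPM of 6 gene lists in bins 3 to 20 of 20 equal bins of the pooled cells by score, in 3 libraries, with the highest bin shaded. Glycolysis genes climb in every library, metallothioneins reach their highest level with the combination, and S phase genes are lower in the end bins than in bins 11 to 15.

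Within members, the libraries were set side by side with no test, since each treatment had 1 library. A gene was counted when its log2 ratio was at least 1 in size and it reached 50 CPM in either library. This held for 32 of 3082 genes between Trikine and sIL-2 (1.04%), for 77 of 3005 between Trikine and combination (2.56%), and for 209 of 3185 between sIL-2 and combination (6.56%). In the other cells the counts were 16 (0.506%), 32 (1.05%) and 58 (1.81%). The largest count was between sIL-2 and combination, and members had larger counts than other cells in each pair. Member sums rest on fewer UMIs, and the part of culture, agent dosed, depth and library in these counts was not tested. With TMM factors in place of total UMIs the split of higher and lower moved from 8 and 24 to 18 and 14 between Trikine and sIL-2, and from 139 and 70 to 103 and 90 between sIL-2 and combination.

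Comparing Trikine with sIL-2, the lowest ratios were those of *Gzme* (log2 ratio -2.05), *Cdkn2a* (-1.91), *Ltb4r1* (-1.56), *Gzma* (-1.53) and *Serpinb1a* (-1.39), and the highest those of *Hspb1* (2.67), *Cxcl2* (2.10), *Nusap1* (1.26), *H3c3* (1.21) and *Rrm2* (1.08). *Gzma*, a granzyme, stood at 1511 CPM in Trikine members and 4356 CPM in sIL-2 members, and at 1085 and 3901 CPM in other cells. The counting interval of its log2 ratio in members, -1.56 to -1.49, leaves out the spread between cells and between mice. *Hspb1* and *Cxcl2* had 94.9% and 100% of their Trikine member UMIs in 5 cells. *Hilpda* was lower with Trikine in members (444 against 892 CPM) and in other cells (222 against 447 CPM) by nearly the same log2 ratio of -1.01.

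Comparing Trikine with the combination, the lowest were *Mt2* (-2.13), *Gzmf* (-1.95), *Il1r2* (-1.91), *Klra5* (-1.86) and *Mt1* (-1.85), and the highest *Ccl3* (2.46), *Hspb1* (2.23), *Ifi214* (2.15), *Tnfsf8* (2.04) and *Ifi27l2a* (2.00). *Ccl3*, an inflammatory chemokine, stood at 849 CPM in Trikine members and 154 CPM in combination members, while other cells stood at 878 and 934 CPM, a log2 ratio of -0.09. The member and other-cell ratios were not tested against each other, and 5 cells held 41.7% and 37.5% of the member UMIs.

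Comparing sIL-2 with the combination, the lowest were *Mt1* (-2.17), *Fabp5* (-2.13), *Mt2* (-2.10), *Idi1* (-2.09) and *Ccna2* (-1.81), and the highest *Tnfsf8* (2.56), *Ccl3* (2.53), *Ccl5* (2.47), *Ifi214* (2.35) and *Nr4a1* (2.28). *Fabp5* carries fatty acids, *Idi1* makes isoprenoids and *Ccna2* drives the cell cycle. *Ccl5*, a chemokine of effector T cells, stood at 2301 CPM in sIL-2 members and 416 CPM in combination members, and at 2277 and 929 CPM in other cells. *Tnfsf8*, CD30 ligand, stood at 340 and 57.9 CPM in members and 365 and 127 CPM in other cells. Activation genes as a list summed to 9156, 8279 and 3956 CPM in members and to 12518, 10608 and 9335 CPM in other cells, so the combination library was lowest in both and lower in members.

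**Figure D5:**
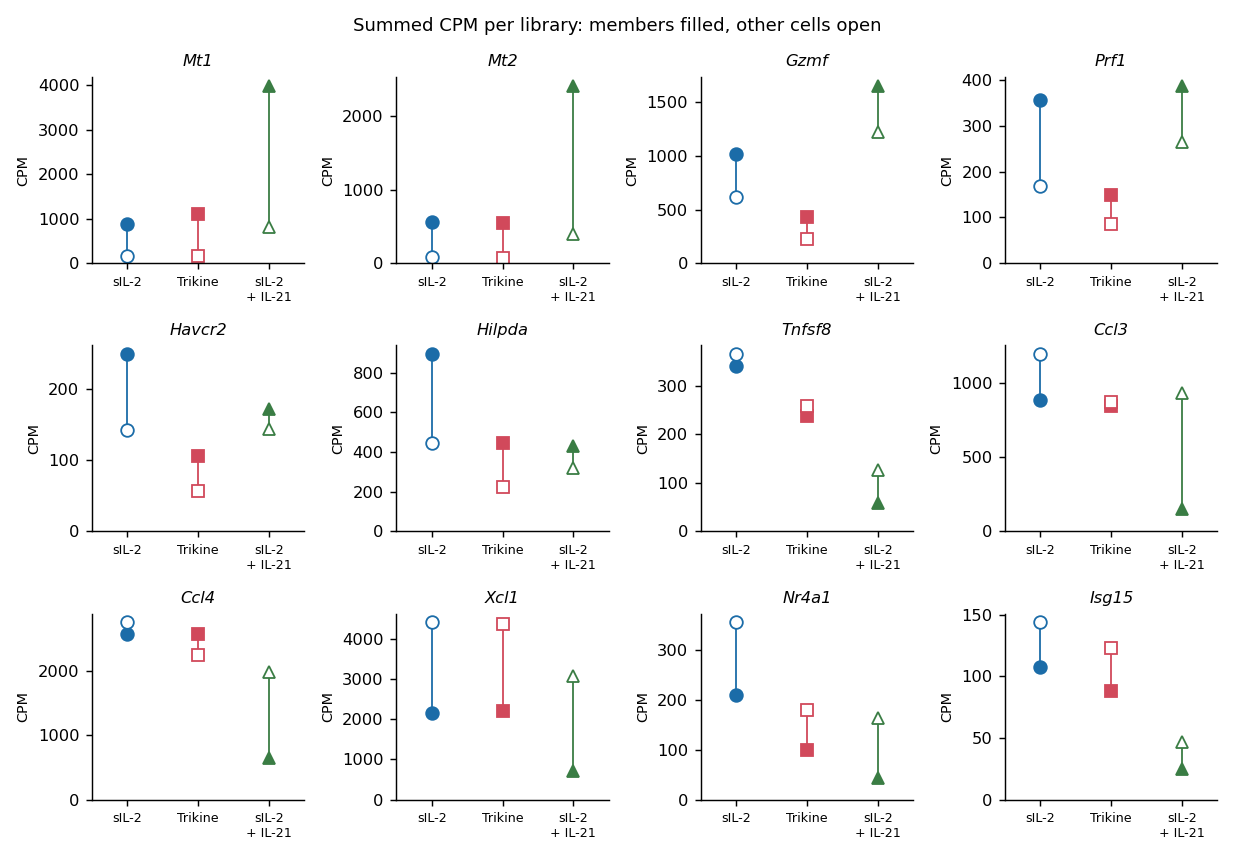
Summed CPM of 12 genes per library, filled marks for members and open marks for other cells, each panel starting at 0. *Mt1* is highest in combination members, 3978 CPM, and *Ccl3* is lowest there, 154 CPM.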

How the data were processed

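Intratumoral Thy1.1+CD8+ cells were sequenced with the 10x 3′ v3.1 kit in 3 libraries. The deposited matrices hold UMI counts, not normalized by the authors, from Cell Ranger, which the methods state was run with intronic reads included. The labels name the mm10 build and the methods another build, so promoter windows are those of RefSeq and no other coordinates are given. The study's lower limit of 500 UMIs would leave 7760, 13299 and 9798 barcodes, and the higher limit of 2000 used here left 7494, 11524 and 9434, with 129886211, 165051207 and 167689133 UMIs. The members, the gene lists and the tests were chosen with earlier results of these data known.

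Counts were summed over members and over other cells of each library, giving 6 sums, and tested with edgeR 4.0.16 (TMM factors, filterByExpr, quasi-likelihood test, library as a block, Benjamini-Hochberg adjusted p at most 0.05) in R 4.3.3. CPM are summed UMIs per 1000000 UMIs, and log2 ratios for a library are ratios of CPM. Gene names came from the deposited files, and 4 of the 32 listed genes of oxidative phosphorylation and 1 of the 14 inhibitory genes were not among them. Named genes were the score genes, the listed genes, the 10 genes with the highest and 10 with the lowest log2 ratio that were called with the same sign in all 3 libraries with a mean of at least 20 CPM in members (higher) or other cells (lower), and, within members, the 5 highest and 5 lowest ratios of each pair of libraries at 50 CPM or more, without receptor segments. Shares have exact binomial intervals, and ratios have log-normal counting intervals, at 95%. No doublet caller was run, and an alternative left out the deepest 5% of cells of each library. Alternatives covered the share taken as members, the depth limit, thinning, the score, cycling and other cells, DESeq2 1.42.0, the filter, the block and each library. Some items are not reported here. Calculations used Python 3.11.15, numpy 2.4.6, scipy 1.17.1, pandas 2.3.3 and matplotlib 3.10.9.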

Additional observations from a re-analysis of the deposited data

Results flagged for a closer look

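For 13 named genes the ratio of members to other cells had opposite signs in different libraries, each with a counting interval that left out 0. With 1 library per treatment these differences were not tested. The intervals cover counting error of UMIs and not the spread between cells, so small ratios of abundant genes can pass. The lists and the largest ratios of members over other cells together gave 392 genes with a fitted ratio. The log2 ratio of *Cox5b*, of oxidative phosphorylation, was 0.12 with the combination, -0.092 with sIL-2 and -0.18 with Trikine. That of *mt-Co1*, of the mitochondrial genome, was 0.027 with sIL-2, -0.059 with Trikine and -0.029 with the combination. The amino acid transporter *Slc7a5* stood at 0.45 with the combination, -0.24 with sIL-2 and -0.43 with Trikine. The chaperone *Hsp90ab1* stood at 0.079 with the combination, -0.23 with sIL-2 and -0.26 with Trikine. The granzyme *Gzmd* stood at 0.55 with Trikine, -0.10 with sIL-2 and -0.28 with the combination. The granule gene *Nkg7* stood at 0.069 with sIL-2 and -0.22 with the combination. The chemokine *Ccl4* had the widest spread, 0.20 with Trikine, -0.094 with sIL-2 and -1.61 with the combination. The IL-2 receptor chain *Il2rb* stood at 0.064 with sIL-2, -0.11 with Trikine and -0.19 with the combination, and *Stat3* at 0.099 with sIL-2 and -0.11 with Trikine. *Jun* stood at 0.53 with Trikine and -0.17 with sIL-2. The ribosomal gene *Rpl8* stood at 0.055 with Trikine, 0.13 with the combination and -0.059 with sIL-2. The nuclear RNA *Malat1* stood at 0.27 with sIL-2, 0.27 with Trikine and -0.12 with the combination. The receptor gene *Trac* stood at 0.059 with sIL-2, -0.074 with Trikine and -0.32 with the combination.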

How the results depend on the processing

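The ratio of member shares of Trikine to sIL-2, 0.613, was 0.498 with 2% of cells as members, 0.704 with 10%, 0.772 in cells thinned to 2000 UMIs, 0.490 with a score without *Higd1a*, 0.515 with a scaled mean of the 6 genes and 0.730 without cells with melanoma or myeloid UMIs. That of Trikine to the combination, 0.588, was 0.693 thinned, 0.838 without cells with mitosis UMIs (an alternative chosen after seeing the data) and reversed to 1.11 without cells with melanoma or myeloid UMIs, a wide filter led by *Cst3*, against 0.581 with the T cell limit. That of sIL-2 to the combination, 0.958, was 1.12 with 2% of cells, 1.22 without *Higd1a*, 1.10 with the scaled mean, 1.53 without melanoma or myeloid UMIs and 1.23 without mitosis UMIs. Of 1392 higher and 1945 lower calls, the counts were 868 and 1072 without cells with melanoma or myeloid UMIs, 539 and 517 thinned, 67 and 8 with no library block, and 1039 lower without cells with mitosis UMIs. Without one library they ran from 934 to 1608 and from 1331 to 2009. With no block 10 glycolysis genes and 11 other HIF targets were called higher, and 0 genes of the activation, mitosis, S phase, interferon and unfolded protein lists lower. Thinning left 3 mitosis, 7 S phase, 5 interferon and 5 unfolded protein genes called lower. Mitosis genes called numbered 7 with 10% of cells, 8 with the scaled mean, 7 without the deepest 5% of cells, 1 without cells with mitosis UMIs (4 for S phase), and 9 to 15 without one library. The sign of *Cxcl2* reversed, to -2.95, with 5000 UMIs as the lowest total. Left out of the score, the folds with 2% and 10% of cells were 5.43 and 3.48 for *Ankrd37*, 2.52 and 1.91 for *Pdk1*, 5.20 and 3.35 for *Ero1a*, 2.38 and 1.81 for *Higd1a*, and 5.25 with 2% for *Egln3*. The causes of these shifts were not tested. No paired analysis was possible between treatments because each has 1 library, while members and other cells were paired by library through the block. With 1 library per treatment, library and treatment cannot be told apart.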
